A study of Mus musculus with 10 samples.

Results

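Wnt/β-catenin target genes were followed through 10 RNA-seq libraries of mouse embryonic stem cells: T, Cdx1, Cdx2, Nkx1-2, Sp5, Axin2, Lef1, Tcf7, Notum and Nkd1. These 10 genes were listed by symbol and matched by exact name, out of 49622 distinct row names in the gene table. All 10 were among the 16056 genes tested (a normalised count of at least 10 in at least 2 libraries), T and Cdx2 only through the E14tg2a libraries. The members were chosen by their place in the pathway with their measured changes between these same groups known, ETO against Control among them, so the levels and changes of these genes are given as a description. Where the fit over all genes called a member, the call is part of that description and supports nothing. None shared a row with another gene, and Lef1 had 2 rows, which were summed.

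The libraries came from 5 groups with 2 biological duplicates each, and p-values for other genes measure only the spread between such duplicates. WT and KO were blastocyst-derived C57BL/6J cells that carry Mof fl/fl and Cre-ER TM, so that floxed Mof alleles can be removed by a tamoxifen-inducible Cre. The protocol gave ethanol or 100 nM 4-hydroxytamoxifen for 3 days, and the labels do not say which group received which. Control, ETO and Released were the E14tg2a line. Control had water for 4 days, ETO had etomoxir for 4 days at a dose the labels do not give, and Released had 4 more days after etomoxir was withdrawn. Etomoxir blocks fatty acid oxidation by keeping long-chain fatty acids out of mitochondria. Every group, the controls included, grew in 2i/LIF medium with 1 µM PD0325901, an inhibitor of MEK, 3 µM CHIR99021, an inhibitor of GSK3, and 1000 U/ml LIF. The Mof gene, listed as Kat8, read 433 and 357 normalised counts in the WT libraries against 222 and 205 in the KO libraries, so the KO libraries still held Kat8 signal.

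In the Wnt/β-catenin pathway, a destruction complex built on Axin and APC lets GSK3 mark β-catenin for degradation. Wnt ligands, or an inhibitor of GSK3, block that step, and β-catenin then joins TCF/LEF proteins on DNA to switch on target genes. Axin2, Notum and Nkd1 are known as targets that feed back to restrain the pathway, while T, Cdx1, Cdx2, Nkx1-2 and Sp5 encode transcription factors of the primitive streak and posterior embryo. In embryonic stem cells, CHIR99021 is used to keep β-catenin stable and so to support self-renewal.

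The stretches upstream of the start sites of T, Sp5 and Axin2 are shown. T was among the genes lowest with etomoxir relative to its control, and Axin2 is the customary reporter gene of the pathway. T and Sp5 are, with Lef1 at an alternative start site, the members among the 8 searched that had a TCF/LEF word in a searched window. Each line gives the 250 bases before a RefSeq start site on GRCm38.p6, 5′ to 3′ on the plus strand, which is the strand of all 3 genes. The capitals mark the searched words CTTTGAA or CTTTGAT and also CTTTGTA or CTTTGTT, read on either strand. The windows are chr17:8434173-8434422 for T, chr2:70474673-70474922 for Sp5 and chr11:108920099-108920348 for Axin2.
T: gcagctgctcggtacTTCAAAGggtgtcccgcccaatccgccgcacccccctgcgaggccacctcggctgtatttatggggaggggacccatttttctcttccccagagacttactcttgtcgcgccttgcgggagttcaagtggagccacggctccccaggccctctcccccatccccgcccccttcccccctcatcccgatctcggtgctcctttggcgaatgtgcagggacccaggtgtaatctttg
Sp5: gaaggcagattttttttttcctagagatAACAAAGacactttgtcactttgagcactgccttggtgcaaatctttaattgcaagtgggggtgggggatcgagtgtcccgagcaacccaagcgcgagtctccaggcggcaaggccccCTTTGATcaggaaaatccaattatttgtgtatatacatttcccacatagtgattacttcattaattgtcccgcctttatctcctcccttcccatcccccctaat
Axin2: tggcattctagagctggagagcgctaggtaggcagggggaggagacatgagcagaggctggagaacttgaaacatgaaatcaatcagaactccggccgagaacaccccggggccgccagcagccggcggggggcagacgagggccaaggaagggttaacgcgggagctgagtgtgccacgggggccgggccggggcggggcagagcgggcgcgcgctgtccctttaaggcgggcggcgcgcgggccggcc

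The word in T began 235 bases before the start site and those in Sp5 began 222 and 104 bases before it, and the Axin2 window held none. RefSeq promoters of 8 of the 10 genes were searched, 12 promoters in all, and Cdx1 and Notum were not searched. The Nkd1 window (chr8:88527383-88527632) lay inside the gene, which begins at 88521354 in the mm10 annotation, so that start was not searched. Of the 12, 3 held a word, the other one being an alternative Lef1 start. Over all 32851 promoters of the same length in the table, 14.8% held at least 1 word. A match is a string of letters and was not tested as a binding site.

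Levels were read as normalised counts, that is, read counts divided by 1 factor per library. One read was worth 0.689 to 1.35 normalised counts, and the libraries held an estimated 9749910 to 16769400 reads in genes. A value of 3 reads, taken as the limit of detection, corresponded to 2.07 to 4.05 normalised counts. Changes are fitted differences of log2(normalised count + 1), 2 libraries against 2, and this scale understates the change of the lowest genes. Their standard errors (SE) come from 1 fit to all 10 libraries. Each gene's SE is pooled over the 5 groups and both lines and moderated across genes. It is the same in every comparison and is not the spread of the compared libraries alone. A gene was called at an adjusted p under 0.05 in limma's moderated test over all tested genes. The median gene differed by -0.09 between ETO and Control and by 0.08 between KO and WT, and scaling to the total signal moved these medians to 0.069 and -0.076.

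The first comparison asked how the target genes stood in cells treated with etomoxir, ETO against Control. In 9 of the 10 genes both ETO libraries lay below both Control libraries, where 45.8% of all tested genes lay lower in that way, and Nkd1 was the exception. Group means of the 9 ran from 4.23% of Control in T to 47.9% in Tcf7. The model called the same 9 genes lower, where 34.0% of all tested genes were called lower and 60.8% in either direction. The members' median log2 change was -1.75, against -0.09 over all tested genes. Nothing is read from these counts, because the genes were chosen with this contrast in view. In bulk libraries, fewer cells that express a gene and less RNA per cell cannot be told apart.

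**Figure D1:**
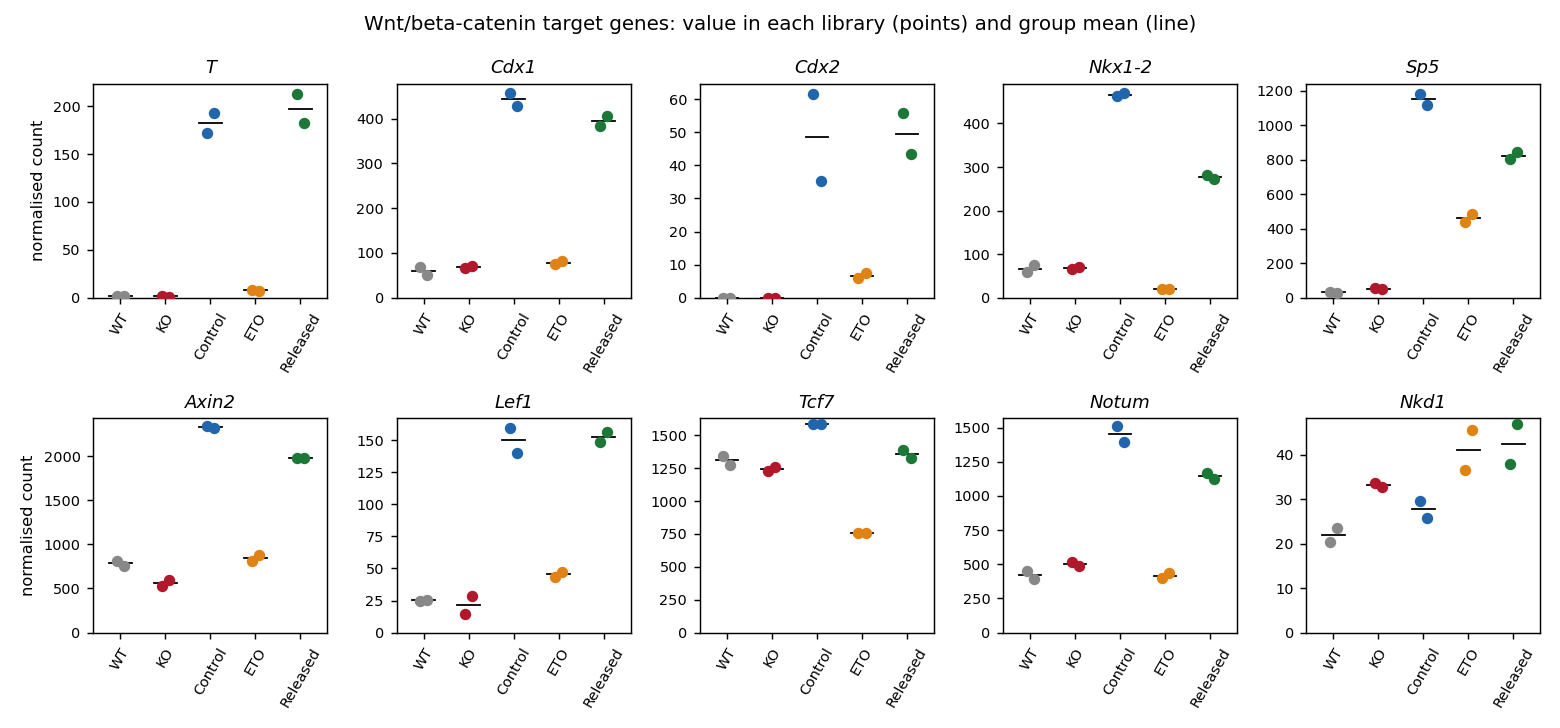
Normalised counts of the 10 Wnt/β-catenin target genes in each library, 1 panel per gene, each with its own linear vertical axis from 0. Points are libraries and short lines are group means (2 libraries each). In every panel but that of Nkd1 the ETO points lie below the Control and Released points.

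T encodes brachyury, the T-box factor of the primitive streak and notochord (chromosome 17, 8434423 to 8442496 in the mm10 annotation, plus strand). It read 172 and 193 normalised counts in the Control libraries and 7.91 and 7.47 in the ETO libraries. The ETO values stood on 8 and 9 reads, so their relative counting error was large. The log2 change from Control to ETO was -4.40 ± 0.32 (SE).

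Nkx1-2, a homeobox gene of the posterior growth zone of the embryo (chromosome 7, 132594878 to 132599637, minus strand), showed a difference of similar size. Its Control libraries read 463 and 469 normalised counts and its ETO libraries 20.8 and 19.1. The log2 change was -4.48 ± 0.16 (SE), which left 4.27% of the Control mean. Fgfr2 and the antisense gene Gm16764 overlap Nkx1-2 in the annotation, and strand use in counting is not given in the sources used here, so its reads cannot be assigned with certainty.

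The caudal-type homeobox genes Cdx1 and Cdx2, which pattern the posterior body axis, came next in size. Cdx1 read 458 and 429 normalised counts in Control against 75.1 and 81.4 in ETO, a log2 change of -2.49 ± 0.15 (SE). Cdx2 (chromosome 5, 147300805 to 147307270, minus strand), which is also a defining factor of trophectoderm, read 61.6 and 35.3 in Control against 5.93 and 7.47 in ETO. Its log2 change was -2.64 ± 0.49 (SE), and the 2 Control libraries stood farther apart for Cdx2, relative to its level, than for the other members. The ETO values of Cdx2 stood on 6 and 9 reads.

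Sp5, a zinc-finger factor that modulates other Wnt targets (chromosome 2, 70474923 to 70477729, plus strand), differed less. It read 1183.3 and 1115.7 normalised counts in Control and 438 and 486 in ETO, a log2 change of -1.32 ± 0.14 (SE). Its ETO level was 40.2% of Control, against 4.23% in T, while the upstream stretches of both genes printed above hold TCF/LEF words.

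Among the feedback inhibitors, Axin2 encodes a scaffold of the destruction complex that the pathway itself induces (chromosome 11, 108920349 to 108950783, plus strand). It read 2341.0 and 2317.9 normalised counts in Control and 812 and 877 in ETO, with a log2 change of -1.46 ± 0.08 (SE). Notum, a secreted carboxylesterase that removes the lipid group from Wnt proteins (chromosome 11, 120653788 to 120661175, minus strand), read 1512.5 and 1398.0 in Control and 402 and 433 in ETO. Its log2 change was -1.80 ± 0.09 (SE), which left 28.7% of Control, against 36.2% for Axin2. Both genes have annotated overlapping partners, Gm11670 on the other strand for Axin2 and Myadml2os and Notumos on the other strand for Notum.

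Nkd1, a Dishevelled-binding inhibitor of the pathway (chromosome 8, 88521354 to 88594884, plus strand), went against the other members. It read 29.7 and 25.9 normalised counts in Control and 36.6 and 45.7 in ETO, a log2 change of 0.54 ± 0.26 (SE) that was not called. TMM, median-of-ratios and total signal scaling each turned it into a call, so its call rested on the scaling. Its level was also the lowest of the 10 in Control per gene length, 0.928 FPKM, a value scaled to gene length and library depth.

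Lef1 and Tcf7 encode nuclear partners of β-catenin and are targets themselves. Lef1 (chromosome 3, 131110471 to 131224356, plus strand) read 160 and 140 normalised counts in Control and 43.5 and 47.3 in ETO, a log2 change of -1.70 ± 0.26 (SE). Tcf7 (chromosome 11, 52252371 to 52283014, minus strand) read 1584.0 and 1587.9 in Control and 757 and 761 in ETO. Its log2 change of -1.06 ± 0.07 (SE) was the smallest in size among the 9 lower members. The 2 genes overlap other annotated genes, Gm43352 and Gm42449 for Lef1 and Gm26551 and A630014C17Rik for Tcf7.

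Withdrawal of etomoxir was read from the Released libraries, 4 days later, against ETO and against Control. Control had water for 4 days, and no control matched the 4 days of etomoxir plus 4 of release. Treatment history and days of culture therefore cannot be told apart in either comparison. In the 9 genes that were lower in ETO, both Released libraries lay above both ETO libraries, as did 45.7% of all tested genes. The model called the same 9 higher, where 33.1% of all tested genes were called higher and 57.7% in either direction. This comparison shares its ETO libraries with the one above, so the 2 are not independent, and the values below are given side by side. Group means in Released stood between 59.4% of Control in Nkx1-2 and 108% in T.

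T read 213 and 182 normalised counts in Released, overlapping the Control values, with a log2 change from ETO of 4.51 and from Control of 0.11 (SE 0.32 for each). Cdx2 read 55.8 and 43.4, also within the range of its Control libraries. Lef1 read 149 and 157, again overlapping Control, with a mean of 102% of Control. These 3 genes were the ones whose Released and Control ranges overlapped.

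The 6 other members that were low in ETO had Released values below both Control libraries, as did 30.2% of all tested genes. Nkx1-2 read 281 and 273 normalised counts, a log2 change from Control of -0.75 ± 0.16 (SE). Sp5 read 805 and 844, with -0.48 ± 0.14, and Notum read 1171.9 and 1123.2, with -0.34 ± 0.09. The remaining genes were closer to Control.

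Tcf7 read 1387.6 and 1326.5 normalised counts in Released, a log2 change from Control of -0.23 ± 0.07 (SE). Axin2 read 1977.4 and 1976.3, 84.9% of its Control mean, and Cdx1 read 384 and 405, or 89.2%. Nkd1 read 37.9 and 46.9, overlapping ETO and above both Control libraries.

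Of the 10 genes, Nkx1-2, Sp5, Tcf7 and Notum were called lower in Released than in Control, where 5.51% of all tested genes were called lower and 12.5% in either direction. Leaving out any one of the Control and Released libraries (Control 1, Control 2, Released 1 or Released 2) left no member called by limma, although 5 were lower at an unadjusted p under 0.05 in each of those fits. A limma fit on the FPKM table also called none, with 3 lower and 1 higher at an unadjusted p under 0.05.

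**Figure D2:**
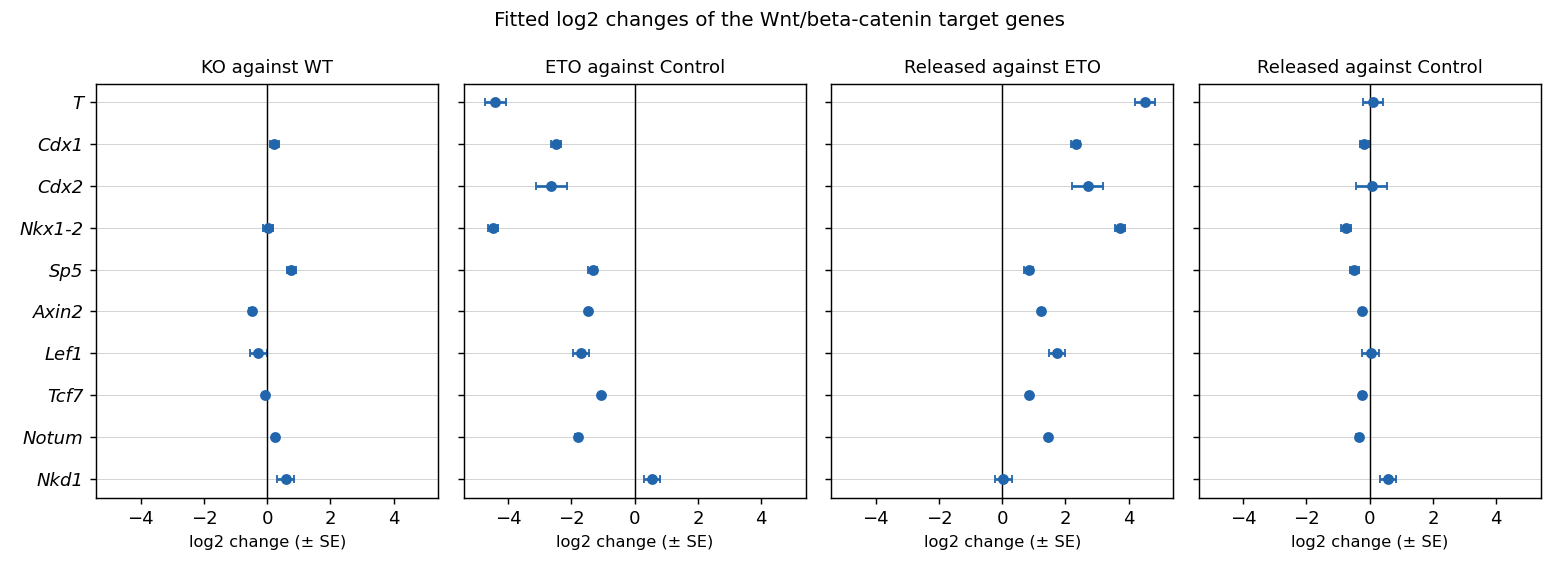
Fitted log2 changes of the 10 genes in each comparison (points), 2 libraries against 2. Bars are standard errors pooled over all 5 groups, the same for a gene in every panel. T and Cdx2 are left out of the KO panel because they were at or below 3 reads in all 4 libraries. Changes reach -4.48 in ETO against Control and 4.51 in Released against ETO, while Released against Control stays between -0.75 and 0.58.

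The KO and WT libraries addressed the loss of Mof, the histone acetyltransferase that modifies histone H4 lysine 16. No common direction was seen: 3 members lay higher in both KO libraries than in both WT libraries, where 39.0% of all tested genes did, and 3 lay lower, where 25.6% did, with T among the latter on only 1 or 2 reads per library. Sp5 and Notum were called higher and Axin2 lower, where 24.6% of all tested genes were called higher, 13.3% lower and 37.9% in either direction. The members' median log2 change was 0.02, against 0.08 over all tested genes.

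Sp5 read 36.1 and 26.5 normalised counts in WT and 55.2 and 51.1 in KO, a log2 change of 0.76 ± 0.14 (SE). The call was lost when the Mof libraries were fitted without the E14tg2a libraries. Notum read 448 and 391 in WT and 517 and 487 in KO, with 0.26 ± 0.09, a difference whose call was lost under 8 of the alternatives, among them TMM, median-of-ratios and total signal scaling, the FPKM table, and leaving out WT 2 or KO 1. Axin2 went the other way.

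Axin2 read 811 and 757 normalised counts in WT and 530 and 597 in KO, a log2 change of -0.48 ± 0.08 (SE), and it was not called on the FPKM table. Sp5 and Notum were thus higher in KO against WT and lower in ETO against Control, and Axin2 lower in both, but the difference between the 2 contrasts was not tested. The other members with reads to compare gave smaller or less certain values.

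Cdx1 read 67.6 and 51.1 in WT and 65.9 and 72.0 in KO, and Nkx1-2 read 58.3 and 75.6 against 65.9 and 70.7, so the groups overlapped for both. Tcf7 read 1343.6 and 1275.3 in WT and 1231.1 and 1257.8 in KO, a log2 change of -0.07 ± 0.07 (SE). Lef1 read 25.0 and 25.5 against 14.8 and 28.8, again overlapping. Nkd1 read 20.4 and 23.6 against 33.6 and 32.7, a log2 change of 0.58 ± 0.26 (SE) that was not called.

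T and Cdx2 could not be compared in these cells. T stood on 2 reads in each WT library and 1 read in each KO library. Cdx2 had no read in the 4 libraries, which allows up to 2.78 to 4.05 normalised counts per library, counting error only. No fold is given for either gene.

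Levels across the 5 groups were ordered per gene. Control and Released held the 2 highest means in 9 of the 10 genes, and Nkd1 was highest in Released and ETO. WT stood far below Control in most members, at 1.91 against 182 normalised counts for T, 31.3 against 1149.5 for Sp5 and 67.0 against 466 for Nkx1-2. Tcf7 was the member closest between them among the 9, at 1309.5 against 1586.0. WT and Control differed in cell line, in solvent or treatment and in days of culture, and these cannot be told apart, so no test was made.

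The ETO values came down to or past the WT values in some genes and not in others. Notum in ETO (417) overlapped WT (420), and Nkx1-2 (19.9) and Tcf7 (759) lay below WT. Sp5 in ETO stayed at 462 normalised counts, above every WT and KO library. Axin2 in ETO (844) lay just above its WT values.

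Ranked by length-corrected level in FPKM, the order of the members differed between the lines. In Control, Notum led with a mean of 86.5 FPKM, followed by Axin2 (49.1), Sp5 (45.5) and Tcf7 (44.6). In WT, Tcf7 led with 37.0 FPKM, followed by Notum (25.9) and Axin2 (16.7), and Sp5 stood at 1.24. Nkd1, at 0.752 FPKM in WT, was low in both lines.

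The rest of the pathway was read from 114 other genes in 8 role lists, of which 113 had a row and 88 passed the filter. With etomoxir 26 of the 88 rose and 28 fell, a share near the 60.8% called over all tested genes. By direction, 26.8% of all tested genes were called higher and 34.0% lower, and the counts of each role list below are to be read against these shares. The 88 genes' median log2 change was -0.06, against -0.09 over all tested genes. Scaling moved the split of the 88, to 33 rising and 27 falling with TMM factors and to 34 and 25 with the total signal.

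Of 19 listed Wnt ligand genes 10 were tested, and 6 of these rose with etomoxir, 1 fell and 3 were not called. Wnt4, Wnt7a and Wnt8a passed the filter only through the ETO libraries, where they were high, so the count is partly fixed by the filter and nothing is read from it. Wnt9a read 3.3 and 5.19 normalised counts in Control and 247 and 261 in ETO, a log2 change of 5.63 ± 0.28 (SE; limma adjusted p = 1.82e-10). Wnt7b read 12.1 and 13.5 against 113 and 148, with 3.24 ± 0.31 (adjusted p = 2.26e-07). Wnt3 rose from 1.1 and 3.11 to 28.7 and 37.4 (adjusted p = 3.76e-05).

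Wls, the carrier that takes Wnt proteins to the cell surface, rose from 348 and 395 to 1385.8 and 1335.1 normalised counts (log2 change 1.87 ± 0.09, adjusted p = 2.09e-10). Porcn, which attaches the lipid that Wnt proteins need, fell from 56.1 and 58.1 to 21.7 and 12.5 (log2 change -1.73 ± 0.35, adjusted p = 0.000495). The 2 genes of ligand secretion thus moved in opposite directions.

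Of 15 receptor genes, 4 rose and 5 fell. The Frizzled receptors Fzd5, Fzd7 and Fzd10 fell, by log2 changes of -0.90 ± 0.07, -1.13 ± 0.09 and -1.07 ± 0.08 (SE; adjusted p = 2.77e-08, 5.38e-08 and 3.29e-08). The co-receptors Lrp5 and Lrp6 gave 0.17 (adjusted p = 0.102) and 0.14 (adjusted p = 0.183), and each was called with TMM factors. Lgr4, a receptor for R-spondins, fell from 809 and 810 normalised counts to 356 and 409 (adjusted p = 6.42e-08).

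Of 8 secreted inhibitors, 1 rose and 3 fell. Sfrp1, which binds Wnt proteins, fell from 2915.9 and 2657.9 to 1121.9 and 1208.1 normalised counts, a log2 change of -1.26 ± 0.07 (adjusted p = 5.4e-10). Dkk3 fell by 0.94 on the log2 scale (adjusted p = 2.84e-05). Dkk1, a Wnt target that blocks the co-receptors, gave -1.75 ± 0.54 (adjusted p = 0.0106), and its call was lost without Control 1, without Control 2 and without ETO 1.

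In the cytoplasmic core, 6 of 18 genes rose and 2 fell, with a median log2 change of 0.03. Ctnnb1, which encodes β-catenin, read 12954.8 and 12697.1 normalised counts in Control and 12740.9 and 12807.9 in ETO, a log2 change of -0.01 ± 0.05 (SE; adjusted p = 0.926). Amer1, a membrane adaptor of the destruction complex, fell from 338 and 337 to 126 and 145 (adjusted p = 4.4e-07). Dvl2, a Dishevelled protein that relays the receptor signal, rose by 0.86 on the log2 scale (adjusted p = 9.1e-08). Axin1 fell by 0.37 (adjusted p = 0.000564), Apc gave -0.14 (adjusted p = 0.162, called in the fit of the E14tg2a libraries alone), and Gsk3a gave -0.10 (adjusted p = 0.361). Ctnnb1 shares its row with the microRNA gene Mir7090 and Dvl2 with Mir324, and β-catenin protein was not measured.

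Of 13 nuclear factors, 2 rose and 6 fell. Tcf7l1, the TCF repressor of embryonic stem cells, fell from 1542.2 and 1461.3 to 948 and 1002.1 normalised counts (log2 change -0.62 ± 0.10, adjusted p = 7.44e-05), and the FPKM table gave no call for it. Tcf7l2 gave 0.04 (adjusted p = 0.835). Hdac1, a histone deacetylase, fell by 1.40 on the log2 scale (adjusted p = 6.88e-09), and Tle3, a Groucho co-repressor, rose by 0.53 (adjusted p = 2.41e-05).

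Of 17 other genes listed as Wnt targets, 5 rose and 8 fell, where 26.8% and 34.0% of all tested genes did. Msx2, 1 of the 5, passed the filter only through its ETO libraries. Ccnd1, which encodes cyclin D1, fell from 4868.9 and 4679.9 to 1223.7 and 1348.8 normalised counts (log2 change -1.89 ± 0.07, adjusted p = 5.12e-12). Id2, an inhibitor of helix-loop-helix factors, rose from 189 and 162 to 567 and 555 (log2 change 1.68 ± 0.14, adjusted p = 5.02e-08). Esrrb, a factor of naive pluripotency, fell by 0.57 (adjusted p = 1.05e-07).

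**Figure D3:**
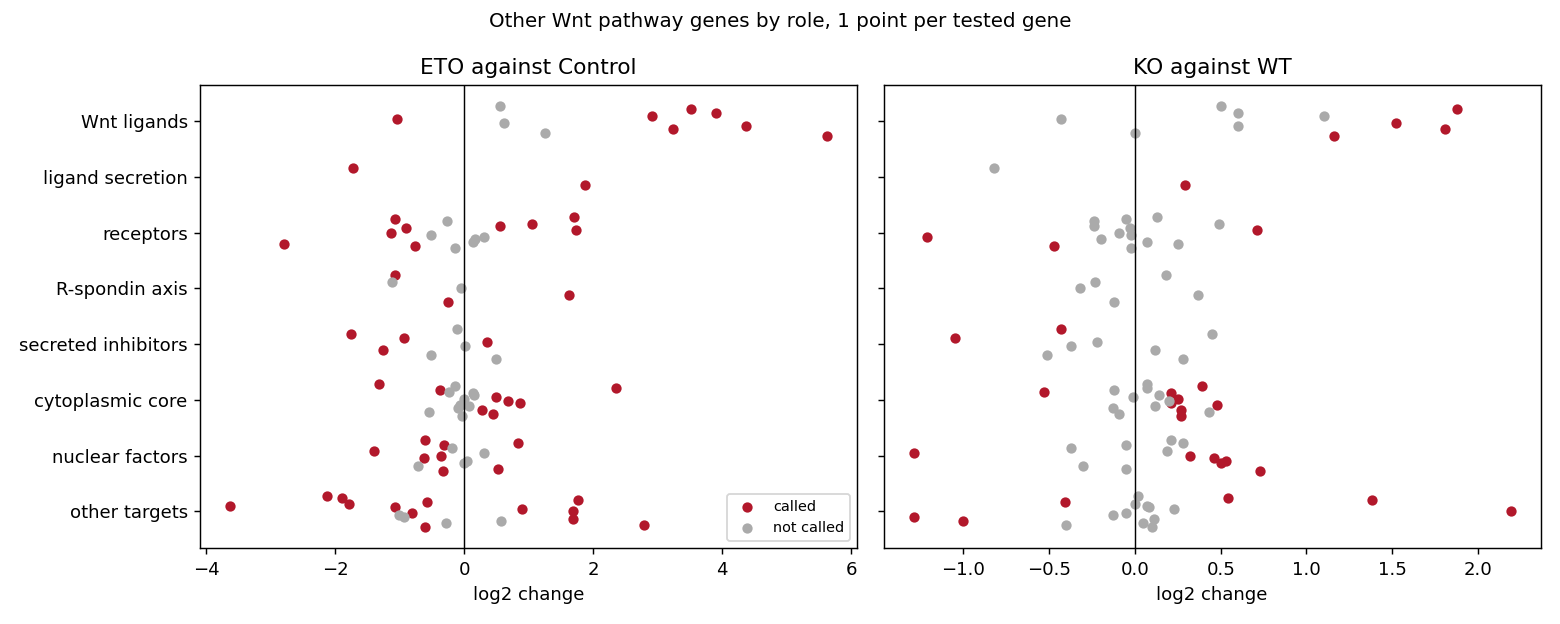
Fitted log2 changes of the 88 tested pathway genes by role, for ETO against Control (left) and KO against WT (right), with different horizontal scales. Each point is a gene, red where called in limma at an adjusted p under 0.05 and grey otherwise. The ligand row reaches 5.63 with etomoxir (Wnt9a), while the cytoplasmic core centres at 0.03.

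After release, 30 of the 88 pathway genes rose from ETO and 22 fell (57.7% of all tested genes were called). Wnt7a, among the 22, passed the filter only through its ETO libraries. Against Control, 7 rose and 5 fell, where 12.5% of all tested genes were called. Wnt5a, among the 7, passed the filter only through its Released libraries, where it was high, so that count is partly fixed by the filter. Wnt9a remained at 30.3 and 28.1 normalised counts in Released, above the 3.3 and 5.19 of Control (log2 change 2.55 ± 0.28, adjusted p = 3.62e-05). Tnfrsf19, a receptor gene listed among the targets, stayed at 388 and 422 against 634 and 593 in Control, a log2 change of -0.60 ± 0.09 (adjusted p = 0.000712). These were the 2 of the 12 calls that held under every alternative setting run.

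In KO against WT, 21 of the 88 pathway genes rose and 9 fell, where 37.9% of all tested genes were called, with a median log2 change of 0.08, equal to that of all tested genes. Scaled to the total signal, 13 rose and 21 fell, so the direction of the list as a whole rested on the scaling. Among single genes, Wnt7b rose from 4.63 and 4.91 to 18.8 and 19.6 normalised counts (log2 change 1.81 ± 0.31, adjusted p = 0.000319) and Wnt9a from 17.6 and 14.7 to 37.7 and 36.7 (1.16 ± 0.28, adjusted p = 0.00419).

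Id2 rose from 47.2 and 41.2 to 190 and 220 normalised counts in KO (log2 change 2.19 ± 0.14, adjusted p = 9.28e-08). Ccnd1 rose from 1430.9 and 1483.2 to 2065.1 and 2182.1 (0.54 ± 0.07, adjusted p = 1.95e-05), whereas with etomoxir it fell. The difference between the 2 contrasts was not tested. Ctnnb1 gave 0.25 ± 0.05 (adjusted p = 0.000755), a call lost with the total signal and with the FPKM table, and Dkk3 fell by 1.05 (adjusted p = 4.25e-05).

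Markers of other cell types were read beside these results as summed FPKM per library. Pluripotency markers were high as a sum in all groups. The 12 naive genes summed to 2887.0 to 2953.2 FPKM in Control, 1915.3 to 1941.1 in ETO and 2994.5 to 3059.5 in Released. Single genes could be low, as Dppa3 was, at a mean of 4.3 FPKM in Control and 3.1 in Released. With etomoxir 10 of these 12 fell, among them Nanog (log2 change -1.24, limma adjusted p = 3.96e-11), and 2 rose, Klf5 and Dppa3. Over all tested genes 34.0% were called lower and 26.8% higher. The summed naive level was lowest in ETO among the E14tg2a groups, as were the 9 Wnt targets.

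Of 7 tested markers of the primitive streak and mesoderm besides T, 3 rose with etomoxir and 2 fell. Over all tested genes 26.8% were called higher, 34.0% lower and 60.8% in either direction. Of the 3, 1 gene, Foxa2, passed the filter only through its ETO libraries. The 11 listed genes summed to 6.53 to 6.54 FPKM in Control, 16.6 to 17.1 in ETO and 8.39 to 8.64 in Released. Most of the higher ETO sum was 1 gene, Eomes, a T-box factor of the streak. It rose from 1.54 and 1.99 FPKM to 11.7 in each ETO library (log2 change 2.60, limma adjusted p = 4.08e-06). The 2 that fell were Gsc (-0.71, adjusted p = 0.0297) and Evx1 (-1.78, adjusted p = 0.0119). Msgn1 was at 0 FPKM in every library.

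Of 9 tested trophectoderm markers 7 rose and 2 fell, where 26.8% and 34.0% of all tested genes did. The 12 listed genes summed to 64.6 to 64.7 FPKM in Control, 660 to 757 in ETO and 143 to 148 in Released. Most of the ETO sum was the keratin gene Krt18, at 497 and 585 FPKM, and Krt8, at 88.5 and 97.6, while Elf5, Hand1 and Plac1 stayed at or below 0.316 FPKM in ETO and Cdx2 was lower. The trophectoderm factors Gata3 (log2 change 2.11, limma adjusted p = 0.000143, not called on the FPKM table) and Tfap2c (0.50, adjusted p = 2.4e-05) rose. Ascl2 (1.92, adjusted p = 4.08e-06) and Krt7 (4.21, adjusted p = 8.11e-12) rose too. The 2 that fell were also factors, Tead4 (-0.33, adjusted p = 0.000812) and Tfap2a (-0.59, adjusted p = 0.0085). Gata3 shares its row with 9230102O04Rik, so its reads are not its own alone. The 8 primitive endoderm genes summed to 10.4 to 12.3 FPKM in Control, 25.6 to 35.0 in ETO and 28.3 to 28.6 in Released. Most of the Released sum was Dab2, at 13.6 and 16.3 FPKM, and Col4a1, at 9.49 and 9.05. The factors Gata4 and Gata6 were lower in Released than in ETO. Gata4 read 6.07 and 4.81 FPKM in ETO and 1.69 and 0.908 in Released, and Gata6 2.9 and 2.79 against 0.694 and 0.683. Neural genes summed to 4.04 to 4.05 FPKM in Control, 11.5 to 11.7 in ETO and 4.71 to 5.22 in Released. In the same order, fibroblast genes summed to 2.48 to 3.74, 3.61 to 4.95 and 7.51 to 7.52, with Dcn under 0.1 FPKM in every library. The part of these cell types in the changes of the Wnt targets was not tested.

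In the Mof cells the same sums moved less. Naive markers summed to 2633.3 to 2890.6 FPKM in WT and 2684.4 to 2689.7 in KO. In that list Tfcp2l1 shares its row with Gm23497, and the row read 439 and 853 FPKM in the WT libraries. Streak genes summed to 4.73 to 5.43 and 5.24 to 7.06, and trophectoderm genes to 96.8 to 97.2 and 114 to 127.

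**Figure D4:**
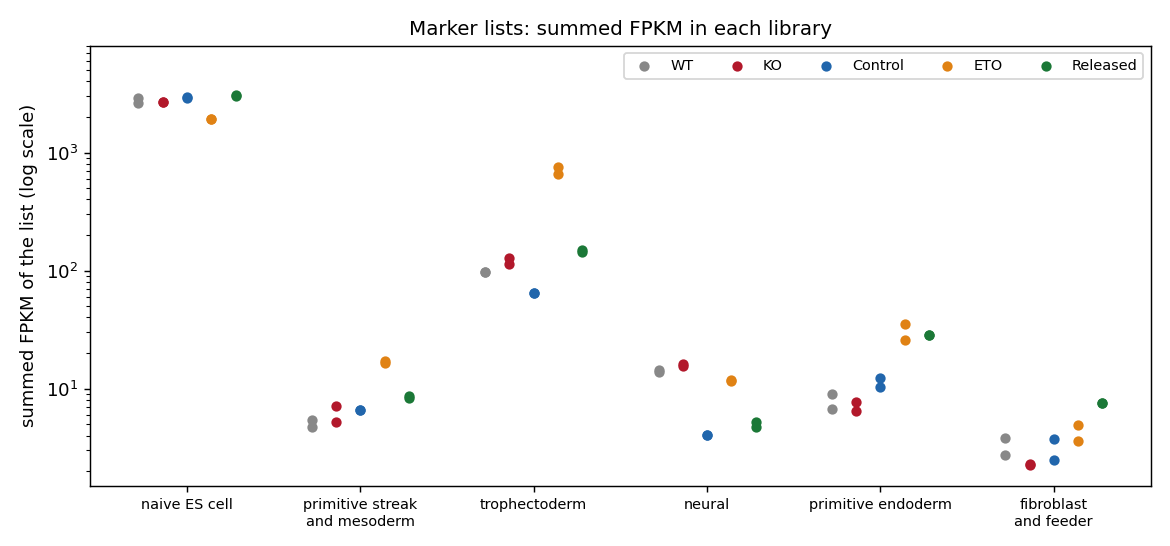
Summed FPKM of 6 marker lists in each library on a log axis, with 1 point per library coloured by group (2 per group). The naive list is lowest in ETO (1915.3 to 1941.1) and the trophectoderm list is highest there (660 to 757).

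For each member, the 3 genes with the closest pattern over the 5 group means were found among 9807 candidates with a mean of at least 50 normalised counts. Likeness is the root mean square difference of centred log2 means, so smaller is closer. The genes of the posterior group had loose matches, among them Bmp4 for T (0.78), Bmp4 for Cdx2 (0.29), Accsl (0.28) for Cdx1 and Ntrk3 (0.46) for Nkx1-2. Sp5 was closest to Slfn8 (0.37).

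Bmp4, a signalling ligand, read 165 and 166 normalised counts in Control, against 36.6 and 37.4 with etomoxir and 247 and 282 after release. Like T and Cdx2, it was near the limit of detection in WT, at 1.85 and 2.95.

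The feedback and nuclear genes had closer matches. Axin2 was nearest to Bdh1, an enzyme of ketone body metabolism, and Pcdh19 (0.11 each), Notum to Hsd17b14 (0.06), Tcf7 to Ube2v2 and Trip13 (0.03 each), Lef1 to Kank4 (0.25) and Nkd1 to Fam102a (0.02). Bdh1 read 1397.3 and 1410.9 normalised counts in Control, against 409 and 460 with etomoxir, and its WT libraries read 392 and 377. A flat pattern has more near neighbours than a steep one, so these distances do not rank the members.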

How the data were processed

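RNA of 10 mouse embryonic stem cell libraries was sequenced single-end from TruSeq libraries, per the labels' protocols. Per the submitters' processing notes, TopHat2 2.1.1, SAMtools 1.5, deepTools and the build mm10 were used; how reads were counted is not given in the sources used here. The gene table deposited by the authors is headed as counts, but its low values are whole multiples of 1 amount per library, so it was handled as a normalised signal and no count model was run. The FPKM values deposited by the authors were used for levels per gene length and as an alternative.

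Rows of the same name were summed (50273 rows in the table), and 2 mitochondrial rows that read 0 in 1 library were left out. Groups were fitted with limma 3.58.1 in R 4.3.3 on log2(value + 1), 1 mean per group over the 10 libraries, with trend and robust variance moderation and Benjamini-Hochberg adjustment over 16056 genes. The fit was tested on simulated data with normal noise. It recovered 64% to 69% of 2-fold changes and 87% to 91% of 4-fold changes, with 3.21% to 4.29% of calls false. A gene that was not called can therefore still differ. Fewer genes changed in the simulation than were called in the data, so these shares may not carry over. The members, the pathway and marker lists and the tests were chosen with earlier results of these data known. Named genes were all members, 11 core pathway genes, up to 3 called genes per role list and comparison with the smallest adjusted p and no overlap, and the 3 nearest patterns per member, of which some are not reported here. Gene coordinates are from GENCODE M21 and upstream sequences from RefSeq (GRCm38.p6). Alternatives were other scalings, pseudocounts and filters, the FPKM table (log2 of FPKM + 0.1), a fit per experiment, a replicate block and leaving out each library.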

Additional observations from a re-analysis of the deposited data

How the results depend on the processing

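Of 804 alternative values of the members' log2 changes, 703 moved by less than the spread between duplicates and 101 did not. None of the called ones changed sign. The filters, the fit per experiment, the replicate block and leaving out a library could not exceed that spread by construction, so the 703 measure little. With TMM factors 24 values moved by less than the spread and 16 did not, with median-of-ratios factors 22 and 18, and with the total signal 16 and 24. Cdx2 in KO against WT had no read in any WT or KO library, so no change and no spread. It is counted among those that did not in each setting that covered it. The 9 members called in ETO against Control and in Released against ETO stayed called in every setting run. In KO against WT, the FPKM table called 2959 genes, 1 member and 13 pathway genes, against 6086, 3 and 30, and the fit per experiment called 1 member. In Released against Control, the FPKM table called 348 genes, 0 members (4 at an unadjusted p under 0.05) and 2 pathway genes, against 2012, 4 and 12. There, the fit per experiment called 3662 genes and 30 pathway genes, and the replicate block 3110 and 20. Same-numbered libraries share only a number and did not deviate together (r from -0.015 to 0.081 across genes), so no pairing was used. The cause was not tested. Leaving out 1 library, with the lone library of its group assumed to vary like the others, gave 770 to 2864 genes, 0 to 5 members and 3 to 19 pathway genes in that comparison, and 4635 to 5912, 2 to 4 and 26 to 30 in KO against WT. Of all calls, 64.8% were higher in KO and 44.1% in ETO, against 37.0% and 57.0% with the total signal, and 57.4% in Released against ETO and 56.1% in Released against Control, against 45.8% and 66.5%. Using the higher Lef1 row alone was added after seeing the data. At 3 reads per library, T and Cdx2 in the Mof cells were not detectable.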
